A study of Homo sapiens with 10 samples.

Results

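The genes described here are 9 genes of the endoderm and of the liver and yolk sac that arise with it. They comprise 3 transcription factors, FOXA2, GATA6 and HNF4A, and 6 genes for secreted plasma proteins, AFP, TTR, APOA1, APOA2, APOB and ALB. They were chosen by gene symbol from the 64940 genes kept from the deposited table, and 8 of the 9 were among the 16687 genes tested. All measurements come from 4 RNA sequencing libraries of cells derived from H9, an established human embryonic stem cell (hESC) line. The 2 oeDAZL libraries are labelled as human primordial germ cell-like cells (hPGCLCs) that overexpress DAZL, a germ cell RNA-binding protein. The labels give the 2 control libraries as cells of wild-type genotype left to differentiate spontaneously, while the design text of the series calls both groups PGCLCs. It is therefore not settled here if the control cells had BMP treatment and a GFP virus, and an effect of DAZL cannot be told apart from one of the culture. No source used here says that the 2 libraries of a group came from separate cultures, so p-values measure the spread between these libraries, which may be technical. The values are TPM, the deposited abundance scaled by transcript length, which keeps no read depth, so no counting error is given and a value of 0 means that the gene is listed at 0.

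Endoderm is specified by GATA and FOXA factors, which open and activate genes in the primitive streak, in the extraembryonic endoderm of the yolk sac and in the foregut. HNF4A, a nuclear receptor, acts later in visceral endoderm and in hepatocytes, where it drives genes for apolipoproteins and other secreted proteins. AFP is the main plasma protein of the embryo and ALB its adult counterpart. TTR carries thyroid hormone and, with RBP4, retinol. APOA1 and APOA2 are the proteins of high-density lipoprotein, and APOB is the structural protein of the particles that liver, gut and yolk sac use to export triglyceride.

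Among the plasma protein genes, AFP and ALB are neighbours, and their promoters are shown because their levels differed in every library. AFP lies on chromosome 4 of hg38 from 73431138 to 73456174 and ALB from 73397114 to 73421482, both on the forward strand with 15 exons in GENCODE 44 and with 9.655 kb between them. APOA2 and HNF4A are shown beside them as another secreted product and as the regulator whose annotated starts differ. Of the 9 genes, 5 had a RefSeq promoter entry (GRCh38.p14), namely AFP, APOA2, ALB, GATA6 and HNF4A. TTR, APOA1, APOB and FOXA2 had none. The 150 bases before each annotated start are given 5′ to 3′ on the strand of the gene, with capitals marking the letters of the motifs named below on either strand:
AFP, chr4:73436071-73436220, forward strand: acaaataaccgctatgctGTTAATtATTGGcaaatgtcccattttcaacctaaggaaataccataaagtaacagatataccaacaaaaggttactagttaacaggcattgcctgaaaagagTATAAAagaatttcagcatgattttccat
ALB, chr4:73404137-73404286, forward strand: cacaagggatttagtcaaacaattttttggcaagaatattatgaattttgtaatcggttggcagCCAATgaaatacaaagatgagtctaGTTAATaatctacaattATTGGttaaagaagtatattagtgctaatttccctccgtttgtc
APOA2, chr1:161223629-161223778, reverse strand: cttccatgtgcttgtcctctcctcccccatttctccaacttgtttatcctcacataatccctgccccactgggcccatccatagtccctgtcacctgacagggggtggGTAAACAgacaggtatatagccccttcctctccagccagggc
HNF4A first start, chr20:44355549-44355698, forward strand: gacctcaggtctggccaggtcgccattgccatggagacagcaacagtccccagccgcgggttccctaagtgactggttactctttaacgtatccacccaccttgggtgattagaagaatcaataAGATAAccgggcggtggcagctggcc
HNF4A second start, chr20:44401089-44401238, forward strand: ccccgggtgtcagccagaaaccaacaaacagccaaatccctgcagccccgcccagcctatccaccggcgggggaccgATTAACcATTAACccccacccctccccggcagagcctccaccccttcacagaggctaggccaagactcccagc

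The search covered 250 bases before each start, on both strands, so that matches farther than 150 bases from a start lie outside the stretches shown. GTTAAT, letters found in HNF1 sites, occurred at base −132 of AFP, at base −61 of ALB and, on the reverse strand, at bases −73 and −66 of the second HNF4A start. It was present in 6.23% of 35116 promoters. TATAAA began at base −29 of AFP and was present in 10.7% of promoters. TGTTTAC or TGTTTGC, letters of FOXA sites, occurred in 6.09% of promoters and among these genes in that of APOA2, on the reverse strand at base −42. AGATAA or TGATAA, letters of GATA sites, occurred in 14.6% of promoters, and were found at base −26 of the first and base −198 of the second HNF4A start and at base −224 of ALB. CCAAT was present in 32.0% of promoters and was found in those of AFP, ALB and GATA6 and before the first HNF4A start. These matches describe the sequence only, since no binding was measured in these libraries.

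The label check came first. The TPM of DAZL was 0 and 0.0333 in control against 102 and 101 in oeDAZL (limma, adjusted p = 1.76e-05). Markers of the labelled cell type were uneven in both groups. Of 12 fixed primordial germ cell markers, 10 were tested, 0 were called and 1 had an unadjusted P-value of at most 0.05 in limma, and the list summed to 325 to 335 TPM. NANOS3 and SOX17 stood low, between 0.732 and 1.66 TPM and between 2.52 and 3.35 TPM, whereas TFAP2C stood between 44.3 and 53.9 TPM and TFAP2A, also an amnion marker, between 149 and 170 TPM. These 4 markers are named because their values were seen. Amnion and trophoblast markers were abundant, with all 14 tested and a summed level of 9666 to 10786 TPM, or of 4598 to 4875 TPM without KRT18, its most abundant gene. In bulk RNA, fewer cells of a type and less RNA per cell cannot be told apart, and this holds for every level below.

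Control replicate 1 stood apart from the other 3 libraries in several of these genes. It held the highest value of 7 of the 9 genes, and of 6 of the 8 tested, against 44.1% of all tested genes. AFP, APOA2 and APOB were at least 1.5 times as high in it as in each other library, and 3.49% of tested genes met that description. The fold changes of the 8 tested genes are therefore given with and without this library. Those printed for other genes are given so where leaving it out moved the value by over 1.5 times or ended a call. A fit that leaves out a library keeps only 1 in its group. Its p-values, intervals and calls then rest on the spread of the other group alone and are descriptions only.

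**Figure D1:**
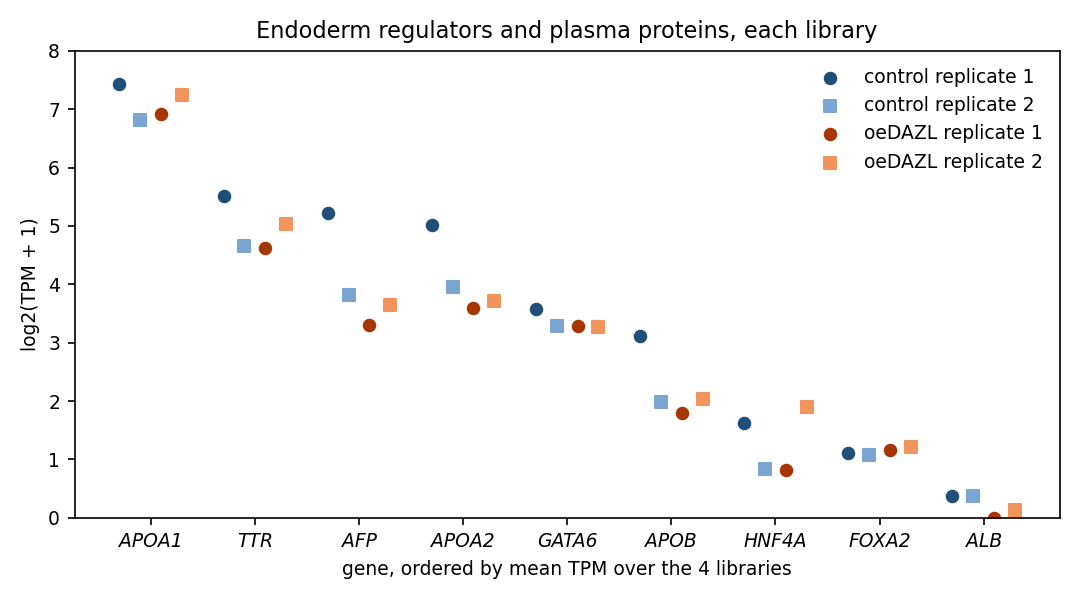
Level of each of the 9 genes in each of the 4 libraries, as log2(TPM + 1), with genes ordered by mean TPM; each point is 1 library. APOA1 is the highest gene in every library and ALB the lowest, and control replicate 1 lies well above the other 3 libraries for AFP, APOA2 and APOB.

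The levels spanned a wide range in every library. APOA1 led with 171 and 112 TPM in control and 120 and 150 TPM in oeDAZL, a mean higher than that of 93.4% of tested genes. TTR followed in every library, and then AFP and APOA2, whose order differed between control replicate 1 and the other libraries. GATA6 came next, ahead of APOB. HNF4A and FOXA2 stood between 0.770 and 2.71 TPM and exchanged places between libraries, so their order cannot be given beyond the spread. ALB was the lowest of the 9 in every library.

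AFP, the fetal plasma protein, was the only one of these genes that was called. It measured 36.3 and 13.1 TPM in control and 8.91 and 11.6 TPM in oeDAZL. Both oeDAZL values lay below both control values, and the control libraries differed 2.77-fold from each other. The log2 fold change, on the log2(TPM + 1) scale as for every gene here, was −1.04 (SE 0.42, 95% interval −2.06 to −0.01). Its unadjusted P-value was 0.0480 and its adjusted p-value in limma was 0.243. A call required a difference of 2-fold or more together with an unadjusted P-value no higher than 0.05, which 0.563% of tested genes met in the lower direction and 0.126% in the higher direction. Without control replicate 1 the log2 fold change of AFP was −0.34, and the call was lost. It was also lost with median-of-ratios scaling (−0.94) and quantile normalization (−0.93). Without control replicate 2 the log2 fold change of AFP was −1.74.

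ALB, the adult counterpart of AFP, was hardly detected. It was listed at 0.299 and 0.292 TPM in control and at 0 and 0.0988 TPM in oeDAZL. These levels lie under the mean of 1 TPM required for testing. The difference was −0.31 in log2(TPM + 1), a scale that understates the fold change at such levels, and −1.49 with a pseudocount of 0.1. Fitted with no filter on TPM, ALB had an unadjusted P-value of 0.0200 and an adjusted p = 0.346 in limma. In every library AFP was thus well above its neighbour ALB.

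TTR, the carrier of thyroid hormone, did not pass the test. It measured 44.4 and 24.4 TPM in control and 23.6 and 31.8 TPM in oeDAZL. The groups overlapped, and the log2 fold change was −0.26 (95% interval −0.93 to 0.42; adjusted p = 0.636 in limma). The sign was turned by leaving out control replicate 1, which gave 0.16. TTR lies on the forward strand of chromosome 18 from 31557009 to 31598833 and has 4 exons.

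The 2 genes for proteins of high-density lipoprotein differed from each other in how far they moved. APOA1 averaged 142 ± 42.2 TPM (SD, n = 2) in control and 135 ± 21.3 TPM (SD, n = 2) in oeDAZL. Its groups overlapped, with a log2 fold change of −0.05 (95% interval −0.55 to 0.45; adjusted p = 0.916 in limma). That value was 0.26 without control replicate 1 and 0.05 with median-of-ratios scaling, so no direction is given. The gene lies on the reverse strand of chromosome 11 from 116835751 to 116837622. APOA2, on the reverse strand of chromosome 1 from 161222292 to 161223631, measured 31.3 and 14.5 TPM in control and 11.1 and 12.1 TPM in oeDAZL. Both oeDAZL libraries lay below both control libraries. The log2 fold change of APOA2 was −0.83 (SE 0.32, 95% interval −1.60 to −0.06), short of a 2-fold difference, with an unadjusted P-value of 0.0384 and an adjusted p = 0.222 in limma. Without control replicate 1 it was −0.30, and without control replicate 2 it was −1.36.

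APOB, whose transcript of 14121 bases in 29 exons is the longest of the 9, measured 7.66 and 2.95 TPM in control and 2.49 and 3.08 TPM in oeDAZL. Control replicate 1 was the high library, and the other 3 lay close together. The log2 fold change of −0.63 (95% interval −1.52 to 0.26; adjusted p = 0.377 in limma) became −0.07 without that library. It was −1.20 without control replicate 2. APOB is on the reverse strand of chromosome 2 from 21001429 to 21044073.

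The regulators did not pass the test in either direction. GATA6, a zinc finger factor of extraembryonic and definitive endoderm, had 10.9 and 8.76 TPM in control and 8.70 and 8.68 TPM in oeDAZL. The oeDAZL values lay just under the lower control value, and the log2 fold change was −0.15 (95% interval −0.49 to 0.18; adjusted p = 0.566 in limma), or −0.01 without control replicate 1. GATA6 lies on the forward strand of chromosome 18 from 22169589 to 22202528. It overlaps GATA6-AS1, which was at 5.17 and 3.09 TPM in control and at 3.91 and 4.78 TPM in oeDAZL. The sources used here do not state that strand was used in counting, so reads of the pair cannot be told apart where they overlap.

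FOXA2, a forkhead factor of definitive endoderm and floor plate, had 1.16 and 1.12 TPM in control and 1.25 and 1.31 TPM in oeDAZL. It was the only one of the 9 that was higher in each oeDAZL library than in either control library, at a log2 fold change of 0.09 (95% interval −0.46 to 0.64; adjusted p = 0.844 in limma), or 0.11 without control replicate 1. FOXA2 is on the reverse strand of chromosome 20 from 22580998 to 22585455.

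HNF4A had the most variable values of the regulators, with 2.09 and 0.787 TPM in control and 0.770 and 2.71 TPM in oeDAZL. Each group held a high and a low library, and the libraries within a group differed more than the group means of 1.44 and 1.74 TPM. The log2 fold change was 0.12 (adjusted p = 0.897 in limma), and its 95% interval of −0.93 to 1.18 allows a 2-fold rise. At such low levels log2(TPM + 1) understates the fold change, so a 2-fold fall of TPM is not excluded either. Without control replicate 1 the log2 fold change of HNF4A was 0.52. Its sign was turned by leaving out control replicate 2, which gave −0.27, or oeDAZL replicate 2, which gave −0.41. HNF4A lies on the forward strand of chromosome 20 from 44355699 to 44432845, with 17 transcripts annotated.

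**Figure D2:**
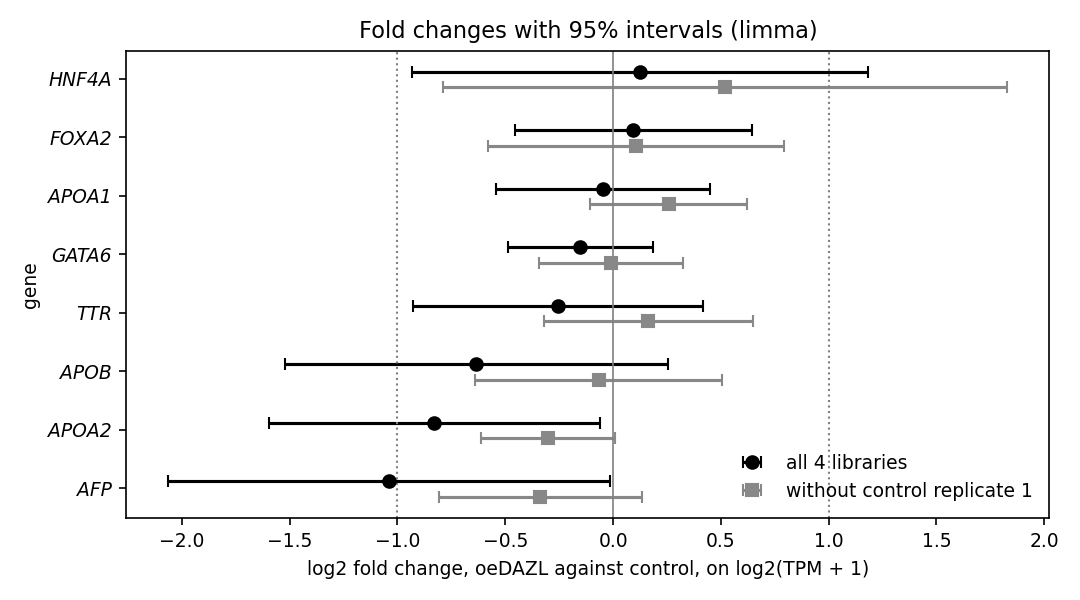
Log2 fold change of oeDAZL against control on log2(TPM + 1) for the 8 tested genes, from limma, with all 4 libraries (black circles) and without control replicate 1 (grey squares); bars are 95% intervals and dotted lines mark a 2-fold change. The intervals of AFP and APOA2 exclude 0 with all libraries, and every interval includes 0 without control replicate 1.

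Counted together, 1 of the 8 tested genes was called lower and 0 were called higher, and 2 had an unadjusted P-value of at most 0.05, both lower. An unadjusted P-value of at most 0.05 with a lower level was found for 15.2% of tested genes. An adjusted p-value under 0.05 in limma was reached by 0 of the 8 and by 0.0599% of tested genes. Both oeDAZL libraries lay below both control libraries for AFP, APOA2, GATA6 and ALB, against 38.4% of tested genes, and above them for FOXA2, against 16.0%. On the log2(TPM + 1) scale, the 95% intervals of TTR, APOA1, FOXA2 and GATA6 excluded a 2-fold change in both directions. Those of AFP, APOA2, APOB and HNF4A did not. For FOXA2, at 1.12 to 1.31 TPM, this scale understates the fold change, so a 2-fold change of its TPM is not excluded. Without control replicate 1, 0 of the 8 were called, against 0.509% of tested genes called lower, and the lowest unadjusted P-value was the 0.0549 of APOA2. Without control replicate 2, AFP, APOA2 and APOB were called lower, against 1.41% of tested genes. The median log2 difference was −0.26 over the 9 genes, −0.47 over the 6 plasma protein genes and 0.09 over the 3 regulators, beside −0.08 over all tested genes. Without control replicate 1 the median of the 9 was −0.01, beside −0.06 over all tested genes.

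The make-up of the plasma protein transcripts differed between libraries. The 6 plasma protein genes summed to 291 and 167 TPM in control and to 166 and 208 TPM in oeDAZL, so the groups overlapped. Without APOA1 the sum was 120 and 55.2 TPM in control and 46.1 and 58.6 TPM in oeDAZL. APOA1 supplied 58.8% and 66.9% of the sum in control and 72.2% and 71.8% in oeDAZL. Within a library, the ratio of APOA1 to APOA2 was 5.48 and 7.69 in control and 10.8 and 12.4 in oeDAZL. The ratio of APOA1 to AFP was 4.73 and 8.52 in control and 13.4 and 12.9 in oeDAZL. The ratio of TTR to AFP was 1.22 and 1.86 in control and 2.65 and 2.74 in oeDAZL. Ratios within a library do not depend on a factor that scales the whole library. They were chosen after the values were seen and carry no test. For all 3 ratios, the oeDAZL libraries stood above each control library, control replicate 2 included. The ratios share genes, and AFP and APOA2 were each lower in both oeDAZL libraries, so the 3 are not separate results. How many other gene pairs are ordered by group in this way was not counted.

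**Figure D3:**
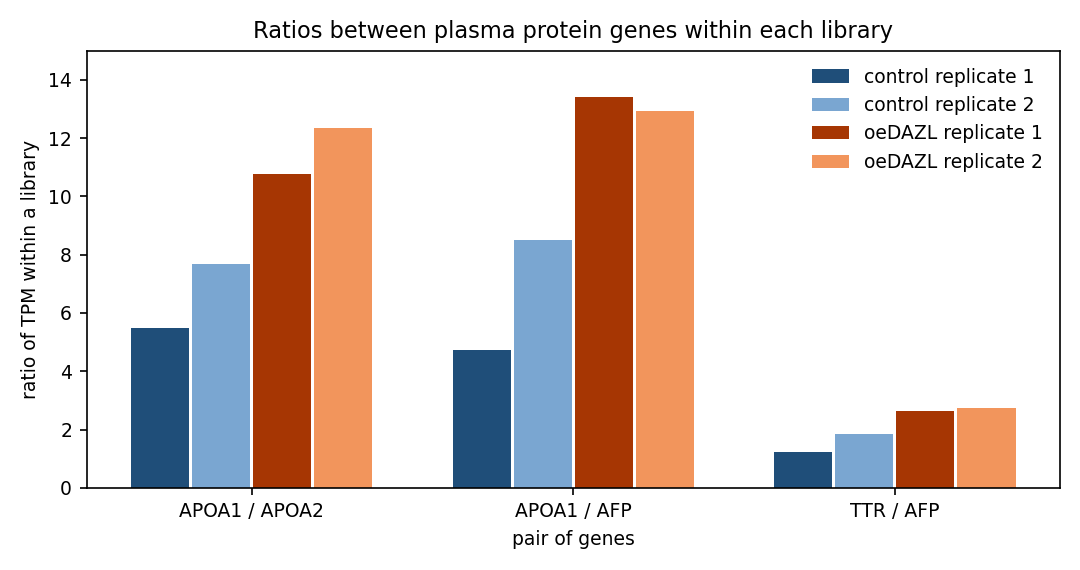
Ratio of TPM between pairs of plasma protein genes within each of the 4 libraries; each bar is 1 library. The ratio of APOA1 to AFP is 4.73 and 8.52 in control and 13.4 and 12.9 in oeDAZL, and the other pairs are ordered likewise by group.

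Other plasma proteins of liver and yolk sac behaved in part like AFP. Of a list of 32 such genes, 9 were tested, 1 was called lower (FGA) and 0 were called higher. An unadjusted P-value of at most 0.05 in limma was found for 4 of the 9, all lower, against 15.2% of tested genes. The median log2 fold change of the 9 was −0.64, and −0.38 without control replicate 1. FGA, the fibrinogen alpha chain, measured 7.90 and 3.31 TPM in control and 1.41 and 2.70 TPM in oeDAZL. Its log2 fold change was −1.05 (95% interval −1.98 to −0.12; adjusted p = 0.211 in limma), and −0.53 without control replicate 1, which ended the call. FGB, the fibrinogen beta chain, had 9.97 and 3.35 TPM in control and 2.14 and 3.31 TPM in oeDAZL. Its log2 fold change was −0.91 (adjusted p = 0.299 in limma), and −0.24 without control replicate 1. Like AFP, FGA, FGB, FGG and RBP4 were at least 1.5 times as high in control replicate 1 as in each other library. FGG and RBP4 are named because their values were seen. FGG, 1 of the 9 tested, had 3.64 and 1.14 TPM in control and 0.290 and 0.882 TPM in oeDAZL. It thus passed the filter on mean TPM only through the group in which it was higher. The ratio of FGB to AFP stayed between 0.240 and 0.286 in the 4 libraries. This pair was chosen after the values were seen and carries no test, and FGG did not keep a steady ratio to AFP.

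Of the more abundant genes of that list, SERPING1 and VTN were lower in mean in oeDAZL and CLU had overlapping groups. SERPING1, the inhibitor of complement C1, had 90.4 and 72.7 TPM in control and 64.1 and 61.8 TPM in oeDAZL, a log2 fold change of −0.36 (adjusted p = 0.163 in limma), or −0.21 without control replicate 1. CLU, an extracellular chaperone, had 60.2 and 59.9 TPM in control and 70.8 and 56.2 TPM in oeDAZL, at a log2 fold change of 0.07 (adjusted p = 0.760 in limma). VTN, the adhesion protein vitronectin, had 12.3 and 8.49 TPM in control and 7.07 and 5.31 TPM in oeDAZL, at −0.66 (adjusted p = 0.178 in limma), or −0.41 without control replicate 1. None of these 3 genes was called.

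**Figure D4:**
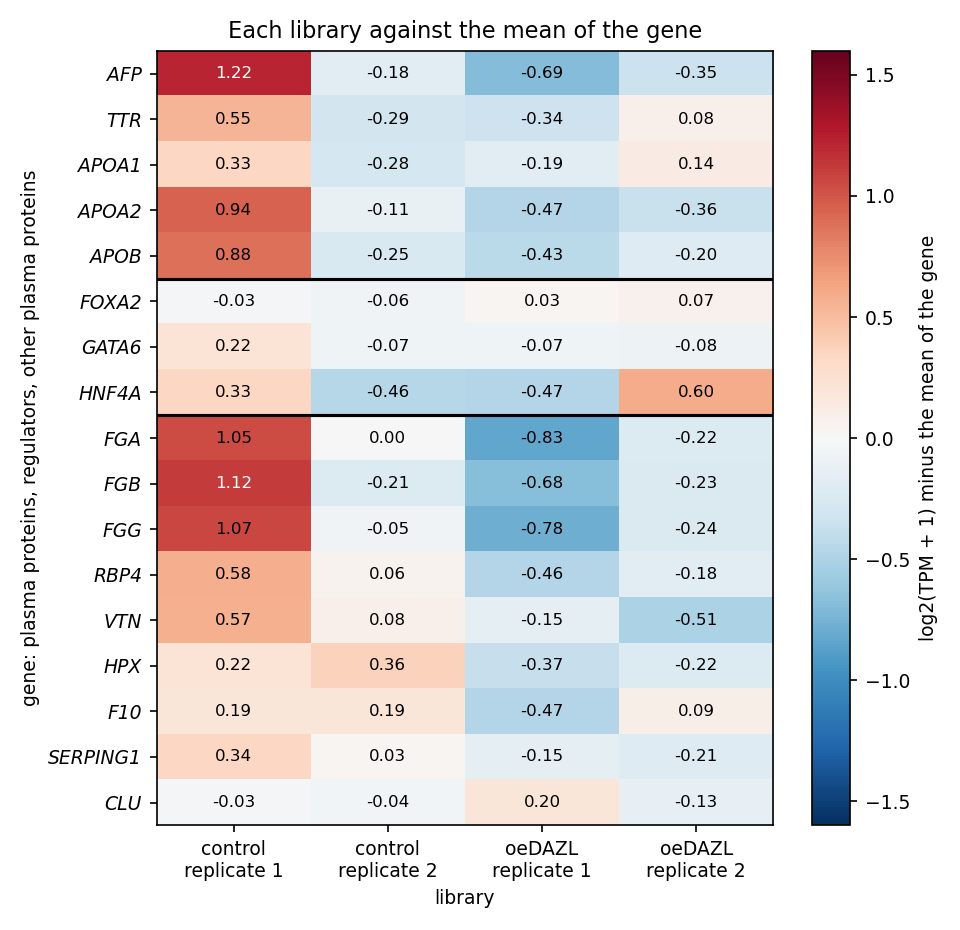
Log2(TPM + 1) of each library minus the mean of the gene over the 4 libraries, for the 5 tested plasma protein genes, the 3 regulators and the 9 tested genes of the list of other plasma proteins. AFP (1.22), APOA2, APOB and the fibrinogen genes have their largest positive values in control replicate 1. The values of FOXA2, GATA6 and CLU lie between −0.13 and 0.22 in every library.

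Of 23 other apolipoproteins and proteins of lipoprotein assembly or uptake, 15 were tested and 0 were called (limma), 1 had an unadjusted P-value under 0.05, and the median log2 fold change was −0.05. APOE, the most abundant of the listed apolipoproteins, had 1128 and 1077 TPM in control and 1203 and 1204 TPM in oeDAZL, at 0.13 (adjusted p = 0.250 in limma). P4HB, the small subunit of the complex that loads lipid on APOB and also a protein disulfide isomerase, stood between 913 and 968 TPM. PLTP, which transfers phospholipid between particles, stood between 82.8 and 90.3 TPM. LRP1, a receptor for APOE-bearing remnants, had 203 and 194 TPM in control and 162 and 172 TPM in oeDAZL, at −0.25 (adjusted p = 0.116 in limma). MTTP, the large subunit of the lipid-loading complex, was under the filter, at 1.22 and 0.899 TPM in control and 0.279 and 0.542 TPM in oeDAZL, and is named because its values were seen. Next to APOA1 on chromosome 11, APOC3 was listed at 0 in all libraries except control replicate 2 (0.617 TPM), and APOA4 stood between 1.15 and 2.06 TPM.

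Other regulators of the endoderm showed no common direction. Of 20 listed factors, 10 were tested and 0 were called (limma), 3 had an unadjusted P-value under 0.05, and the median log2 fold change was −0.01. SOX7, a factor of primitive endoderm and endothelium, had 27.9 and 17.0 TPM in control and 10.7 in both oeDAZL libraries. Its log2 fold change was −0.96 (95% interval −1.48 to −0.44), with an unadjusted P-value of 0.00399 and an adjusted p = 0.111 in limma. It was −0.62 without control replicate 1. SOX7 missed the call only because log2(TPM + 1) put it just short of 2-fold, while its mean TPM was 22.5 in control and 10.7 in oeDAZL. CEBPA, a factor of hepatocytes and fat cells, lay the other way, with 18.0 and 25.0 TPM in control and 30.8 and 28.9 TPM in oeDAZL, at 0.47 (adjusted p = 0.182 in limma), or 0.25 without control replicate 1. TBX3, which acts in liver bud and extraembryonic mesoderm, had 192 TPM in both control libraries and 225 and 220 TPM in oeDAZL, at 0.21 (adjusted p = 0.118 in limma). KLF5 stood between 20.6 and 24.0 TPM with overlapping groups.

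Markers of the cell types that make these proteins were uneven. Of 20 yolk sac and visceral endoderm genes, 18 were tested, 0 were called and 7 had an unadjusted P-value of at most 0.05 in limma. The median log2 fold change was −0.14, beside −0.08 over all tested genes, and 12 of the 18 were lower in mean in oeDAZL. Of all tested genes, 15.2% were lower with such a P-value. The shares for either direction and for a lower mean were not counted, so these counts, for every list here, are descriptions only. The yolk sac list summed to 6932 and 7735 TPM in control and to 7246 and 7350 TPM in oeDAZL. Without FN1, its most abundant gene, the other 19 summed to 2259 and 2401 TPM in control and to 2060 and 2058 TPM in oeDAZL. NID2, a basement membrane protein, was the only one of them with an adjusted p-value under 0.05 in limma (0.0431), at a log2 fold change of −0.80, and is named for that; without control replicate 1 its adjusted p-value in limma was 0.140. Of 12 definitive endoderm genes, 9 were tested, 0 were called and 4 had an unadjusted P-value of at most 0.05 in limma. The 12 summed to 236 and 193 TPM in control and to 165 and 185 TPM in oeDAZL. GPC3, the most abundant of them, had 171 and 124 TPM in control and 101 and 119 TPM in oeDAZL. It supplied most of the sum and of its differences between libraries, and is named because its values were seen. Of 20 hepatocyte enzymes and receptors, only CPS1, ASGR1 and HPD passed the filter, 0 were called, and 2 had an unadjusted P-value of at most 0.05 in limma. These 3 genes are named because their values were seen. The part of any of these cell types in the levels of AFP or APOA2 was not tested.

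Lists for other cell types gave the remaining calls. An unadjusted P-value of at most 0.05 in limma, in either direction, was found for 5 of 12 tested mesoderm genes. The same held for 7 of 14 amnion and trophoblast genes and for 3 of 6 neural genes. COL3A1, a fibrillar collagen of mesenchyme, was lower in oeDAZL at a log2 fold change of −1.25 (adjusted p = 0.0344 in limma), with 1 of 12 tested mesoderm genes called. CGA, the alpha subunit of chorionic gonadotropin, was called lower at −1.18 (adjusted p = 0.0896 in limma), as 1 of 14 amnion and trophoblast genes, and was at −0.92 and no longer called without control replicate 1. PAX6, a neural factor, was called lower at −1.30 (adjusted p = 0.189 in limma), as 1 of 6 tested neural genes. Its values were 3.83 and 1.14 TPM in control and 0.0967 and 0.558 TPM in oeDAZL, so it passed the filter on mean TPM only through the group in which it was higher. It was 3.36 times as high in control replicate 1 as in the next library, and its log2 fold change was −0.71 and no longer called without that library. Of the pluripotency list, 7 were tested, 0 were called and 3 had an unadjusted P-value of at most 0.05 in limma. Without control replicate 1, COL3A1 was the only gene of all these lists that was still called, at −1.10.

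For GATA6 and APOA1, the regulator and the plasma protein gene with the highest levels, the genes with the most similar profile over the 4 libraries were looked up. The measure was the Euclidean distance between log2(TPM + 1) values centred on the mean of each gene. Nearest to GATA6 were TMEM260 (0.0107), TMEM74B (0.0119) and DISP3 (0.0146), among 491 tested genes within a distance of 0.1. Nearest to APOA1 were AL133352.1 (0.0574), MIR497HG (0.0633) and SLC34A2 (0.0665), among 20 genes within 0.1. With 4 points a gene, such nearness is a description only.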

How the data were processed

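RNA sequencing of 2 control and 2 oeDAZL libraries from H9 cells was analysed. The methods of the study describe BMP-driven differentiation, lentivirus carrying DAZL and GFP or GFP alone, and cell sorting. The authors deposited TPM per gene for each library, without pooling. Per the study's methods and the submitters' processing notes, reads were trimmed with Trim Galore (version 0.6.4 in the notes), mapped to hg38 with HISAT2 2.1.0, filtered for unique mapping and quantified with StringTie 2.1.4. The annotation release is not given in the sources used here. Unique mapping can lower genes with near-identical copies, and TPM shifts when abundant genes change. Mitochondrial genes took 12.6% to 14.1% of each library.

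Of 65003 entries, 45 pseudoautosomal copies on chromosome Y and 18 repeated entries were left out. Values were transformed to log2(TPM + 1), which understates the fold change of low genes, and 16687 genes averaging 1 TPM or more entered a limma fit (version 3.58.1, R 4.3.3; lmFit, eBayes with trend, no covariates). Calls required a 2-fold difference or more and an unadjusted P-value no higher than 0.05, as the study set for its own test on read counts. Adjustment was by Benjamini-Hochberg over all tested genes. An exact permutation test of 2 against 2 libraries cannot pass 0.05 and was not used. The procedure was tested on simulated data.

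The 9 genes and 11 gene lists (181 distinct genes, 190 with these 9, all matched by symbol or gene identifier) were chosen with earlier results of these data known. Named were the 9 genes, DAZL, the 4 most abundant tested genes of the 3 closest lists, every called list gene, and the 3 nearest profiles to GATA6 and APOA1. Other genes, neighbours aside, were named because their values were seen. Gene positions came from GENCODE 44 and promoters from RefSeq. Alternatives were a pseudocount of 0.1, no filter, a mean TPM of at least 5, median-of-ratios and quantile scaling, removal of mitochondrial genes, no trend, the replicate block, adjusted p-values and leaving out each library. The miRNA libraries were not analysed here.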

Additional observations from a re-analysis of the deposited data

How the results depend on the processing

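With 2 libraries a group and no read depth, AFP was called on all 4 libraries and was the weakest point of the results. The 1 call among the 9 genes became 0 with no filter on TPM, with a minimum mean of 5 TPM (unadjusted P-value 0.0506), with either other scaling (median-of-ratios or quantile), without mitochondrial genes, in limma without trend (unadjusted P-value 0.111) and with adjusted p under 0.05 in limma, and it ranged from 0 to 3 with each library left out. In these settings AFP lay between −1.04 and −0.93, and from −1.74 to −0.34 with each library left out. With all 4 libraries kept, the adjusted p-value of AFP in limma ranged from 0.217 to 0.524, and that of APOA2 from 0.195 to 0.493. The cause was not tested.

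Signs were reversed for TTR without control replicate 1 (0.16), for APOA1 with median-of-ratios scaling (0.052), without control replicate 1 (0.26) and without oeDAZL replicate 1 (0.11), and for HNF4A without control replicate 2 (−0.27) and without oeDAZL replicate 2 (−0.41). With each library left out, TTR ran from −0.68 to 0.16, APOA1 from −0.36 to 0.26 and HNF4A from −0.41 to 0.66. Median-of-ratios scaling moved the median of all tested genes from −0.08 to 0.01. The summed plasma protein level, as a log2 ratio of oeDAZL to control, was −0.29 and ran from −0.64 to 0.16 with each library left out. Of 93 values of the 8 tested genes under these alternatives, 77 kept both direction and call. Only AFP was called with the main settings, so the other genes had no call to lose. The 8 values that lost the call were all of AFP. Of 88 list medians, 61 moved by less than the spread between replicates.

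Over all genes, 21 were called higher and 94 lower. A pseudocount of 0.1 gave 55 and 267, a minimum mean of 5 TPM gave 6 and 23, and the counts were 37 and 53 with quantile normalization, and 3 and 2 with adjusted p under 0.05 in limma, and ran from 35 to 87 and from 85 to 235 with each library left out. Called genes of the fixed lists, 4, were 9 with a pseudocount of 0.1, 2 with no filter, 2 with a minimum mean of 5 TPM, and 1 to 11 with each library left out.

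With the replicate number as a block, AFP was still the 1 called gene of the 9, and 26 genes were called higher and 99 lower. The differences between replicates 1 and 2 correlated at −0.10 between the groups, so no deviation shared by libraries of the same number was visible. This cannot show if such libraries were prepared together. With the numbers crossed, an alternative chosen after seeing the data, 28 were called higher, 107 lower and 1 of the 9 genes.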
